A study of Mus musculus with 4 samples.

Results

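The mitochondrially encoded genes were taken as all genes that the deposited RNA-seq table places on chromosome MT, which gave 37 of its 56691 genes, with 13 protein-coding, 2 rRNA and 22 tRNA genes. The positions of all 37 equal those in GENCODE M21, an annotation of GRCm38. RNA-seq had been performed on 4 sarcomas of Li-Fraumeni syndrome model mice. Of these, 2 came from mice given arsenic trioxide (ATO 1 and ATO 2) and 2 from control mice whose labels name PBS (PBS 1 and PBS 2). The paper gives the aim as a check that ATO reactivates the mutant p53 in vivo. Both groups carry the same heterozygous p53 allele, which the labels write as p53R282W/+ by the human residue, made by CRISPR/Cas9 and present in the whole body. Per the study's methods ATO was dissolved in the drinking water from a fixed day after birth until death. The age of each mouse at death and the type of each sarcoma are not in the labels, and sarcomas in these mice were of several types, so that tumor type and treatment cannot be told apart with 2 sarcomas a group. The labels also describe, for all 4 samples, the culture of cells with insulin and other agents of adipocyte differentiation, and a library kit other than the mRNA purification kit of the methods.

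Mitochondria carry a small circular genome that is transcribed from both strands into long precursors. The precursors are cut, largely at the tRNAs that lie between the other genes, into 2 rRNAs of the mitochondrial ribosome, tRNAs, and mRNAs that receive short poly(A) tails. The 13 proteins are all subunits of the respiratory chain and ATP synthase, whose other subunits are encoded in the nucleus, and muscle and brown fat are known for a high content of mitochondria.

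The genes are packed so tightly that some share bases, which bears on how counts were divided between them. Of the 13 protein-coding genes 12 lie on the plus strand and mt-Nd6 lies on the minus strand. The coding sequences of mt-Atp8 and mt-Atp6, both subunits of the ATP synthase (complex V), overlap by 43 bases (MT 7927 to 7969, plus strand). The overlap is printed with the start codon of mt-Atp6 and the stop codon of mt-Atp8 in capitals.
mt-Atp8 and mt-Atp6 overlap: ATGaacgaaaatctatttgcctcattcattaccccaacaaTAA
The other overlaps between protein-coding genes are 14 bases between mt-Nd5 and mt-Nd6, which lie on opposite strands, 7 bases between mt-Nd4l and mt-Nd4 and 1 base between mt-Atp6 and mt-Co3. Whether strand was used in counting is not stated, so that reads of mt-Nd6 and of RNA antisense to it cannot be told apart.

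A nuclear copy of part of this genome also bears on the counts. On chromosome 1 of GRCm38 (24611535 to 24616197, minus strand), 7 pseudogenes follow each other in the order of the mitochondrial genes from the end of mt-Co1 to mt-Nd4, and 6 of the 7 are identical to the mitochondrial gene over the whole aligned length. The first 60 bases of mt-Co2 (MT 7013 to 7072, plus strand), a core subunit of cytochrome c oxidase (complex IV), and of its copy Gm28661 (chromosome 1, 24615506 to 24615565, minus strand) are shown because no base tells them apart. For mt-Co1 (MT 6390 to 6449, plus strand) and its copy Gm29216 (chromosome 1, 24616129 to 24616188, minus strand) the printed bases include, in capitals, the 1 mismatch in 483 aligned bases. The sequences are from the GENCODE M21 transcripts.
mt-Co2: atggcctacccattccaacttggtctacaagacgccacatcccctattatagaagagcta
Gm28661: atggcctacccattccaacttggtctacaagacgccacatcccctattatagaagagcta
mt-Co1: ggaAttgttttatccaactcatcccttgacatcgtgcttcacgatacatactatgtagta
Gm29216: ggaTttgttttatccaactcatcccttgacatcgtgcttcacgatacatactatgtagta

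ATO 2 stood apart from the other 3 sarcomas in the amount of mitochondrial RNA. The total counts over all genes were 17465090 in PBS 1, 17971675 in PBS 2, 18134000 in ATO 1 and 15259695 in ATO 2. The mitochondrial genes took 1.98% of them in PBS 1 (95% Wilson interval 1.97 to 1.98), 1.99% in PBS 2 (1.98 to 2.00), 2.59% in ATO 1 (2.58 to 2.59) and 14.7% in ATO 2 (14.7 to 14.8). These intervals cover counting error only. The PBS sarcomas were nearly equal, ATO 1 lay slightly above both, and ATO 2 was 5.70 times as high as ATO 1, so that the groups did not overlap but the ATO sarcomas differed from each other by more than ATO 1 differed from PBS. The ATO mean was 8.66% ± 8.59 (SD, n = 2), beside 1.98% ± 0.00990 for PBS (SD, n = 2). The difference of 6.68 percentage points had an exact two-sided permutation p of 0.333, the smallest that 2 against 2 sarcomas allow, and without ATO 2 it was 0.603. The counts of all nuclear genes were 17119901, 17613958 and 17664988 in PBS 1, PBS 2 and ATO 1 and 13011148 in ATO 2. Of the 10 genes with the most counts, 6 were mitochondrial in ATO 2 (mt-Co1, mt-Cytb, mt-Nd2, mt-Nd1, mt-Nd4 and mt-Nd5), against 2 in ATO 1 and 1 in each PBS sarcoma. In these bulk samples fewer cells of a type and less RNA per cell cannot be told apart.

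**Figure D1:**
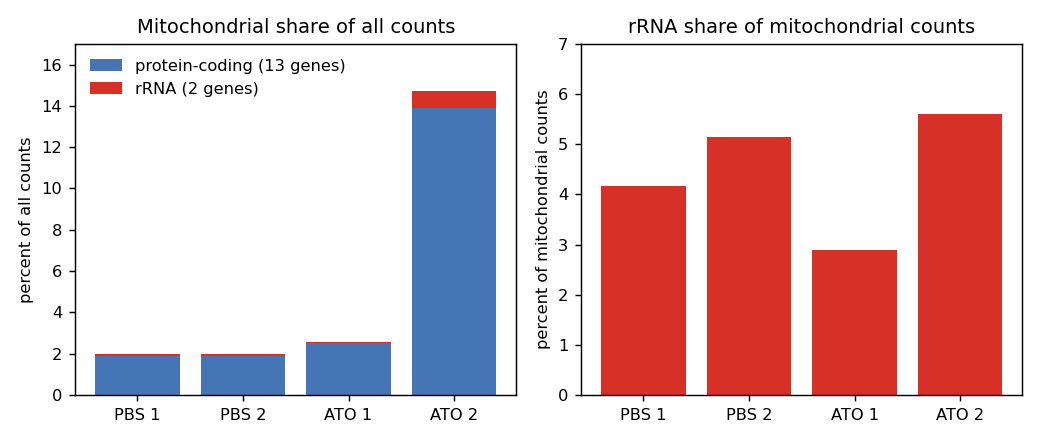
Left, percent of all counts taken by the 13 protein-coding genes and the 2 rRNA genes in each sarcoma (the tRNA genes, at most 0.0267%, are not drawn). Right, the 2 rRNAs as a percent of the mitochondrial counts. ATO 2 stands at 14.7% on the left, while on the right ATO 1 is the lowest and the groups overlap.

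The protein-coding genes held most of the mitochondrial counts in every sarcoma, with 95.7% in PBS 1, 94.7% in PBS 2, 97.0% in ATO 1 and 94.2% in ATO 2. The 2 rRNAs held 4.16%, 5.14%, 2.90% and 5.59% in the same order. The lowest and the highest rRNA share were thus both in ATO sarcomas, and the groups overlapped for both classes. The methods describe a purification of mRNA and the labels name another mRNA kit, and which was used was not settled here, so these shares may not be those of total RNA.

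Complex I (NADH dehydrogenase), the entry point of electrons from NADH, has 7 mitochondrially encoded subunits, and the 5 of them that lie outside the stretch from mt-Co2 to mt-Nd4l were abundant. mt-Nd1 (MT 2751 to 3707) had an FPKM, the count scaled to exon length and to the total count of the library, of 2807 in PBS 1, 2222 in PBS 2, 3454 in ATO 1 and 16895 in ATO 2. mt-Nd2 (MT 3914 to 4951) had 1184, 893, 1794 and 16222 FPKM in the same order. For both genes the ATO sarcomas lay above the PBS sarcomas and ATO 2 lay far above ATO 1. The ratio of mt-Nd2 to mt-Nd1 by FPKM was 0.422 in PBS 1, 0.402 in PBS 2, 0.520 in ATO 1 and 0.960 in ATO 2. The 2 genes, neighbours on the genome but for 3 tRNAs, were thus near each other in level in ATO 2 and apart in the other sarcomas. mt-Nd4 (MT 10167 to 11544) had 1055, 844, 1498 and 10067 FPKM, and mt-Nd5 (MT 11742 to 13565) had 1082, 919, 1359.9 and 5871 FPKM. mt-Nd6 (MT 13552 to 14070, minus strand) had 894, 619, 1071 and 4741 FPKM. It was 0.827, 0.674, 0.788 and 0.808 times the level of mt-Nd5, its overlapping neighbour on the other strand, with no separation of the groups.

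Complex III (cytochrome bc1) has a single mitochondrially encoded subunit, cytochrome b. mt-Cytb (MT 14145 to 15288) had 2823 FPKM in PBS 1, 2590.1 in PBS 2, 3985 in ATO 1 and 26016 in ATO 2. By FPKM this was the 2nd highest level of the mitochondrial genes in all 4 sarcomas. Both ATO sarcomas lay above both PBS sarcomas, and ATO 2 was 6.53 times as high as ATO 1.

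Of complex IV, which passes electrons to oxygen, mt-Co1 (MT 5328 to 6872), the catalytic subunit, had the highest level of all mitochondrial genes in each sarcoma. Its FPKM was 5067 in PBS 1, 6216 in PBS 2, 6600.1 in ATO 1 and 31471 in ATO 2. ATO 1 thus lay only 1.06 times above PBS 2, which was 1.23 times as high as PBS 1. mt-Co2 and mt-Co3, the other core subunits, are assembled with mt-Co1 in equal number, yet mt-Co2 was listed with an FPKM of 37.8, 47.7, 46.0 and 342 and mt-Co3 with 20.01, 22.9, 16.8 and 116. The level of mt-Co2 per length was 0.745%, 0.767%, 0.696% and 1.09% of that of mt-Co1.

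These 2 genes belong to a stretch of 6 neighbours, mt-Co2, mt-Atp8, mt-Atp6, mt-Co3, mt-Nd3 and mt-Nd4l, that was listed far below the other 7 protein-coding genes in every sarcoma. The 6 genes together had 870 counts in PBS 1, 1124 in PBS 2, 1007 in ATO 1 and 6249 in ATO 2, which was 0.252%, 0.314%, 0.215% and 0.278% of the mitochondrial counts. Within a sarcoma the lowest of the other 7 genes was 23.7, 12.99, 23.3 and 13.8 times as high by FPKM as the highest of the 6. mt-Atp8 had 5, 6, 3 and 36 counts, mt-Nd3 had 5, 15, 8 and 100, and mt-Nd4l had 3, 4, 4 and 52, so that their values in all sarcomas but ATO 2 rest on few reads.

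**Figure D2:**
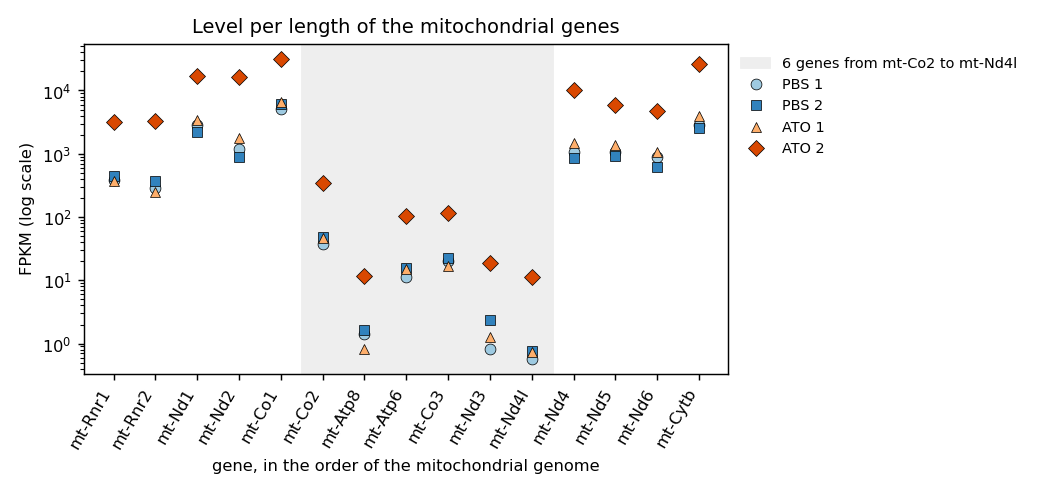
FPKM of the 15 protein-coding and rRNA genes (log scale) in the order of the mitochondrial genome, with 1 point for each sarcoma. The shaded genes, mt-Co2 to mt-Nd4l, lie below the other protein-coding genes in all 4 sarcomas, and ATO 2 is the highest sarcoma for all 15 genes.

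The copy on chromosome 1 spans the low genes and reaches into mt-Co1 and mt-Nd4, the abundant genes on either side. Of all windows of 100 bases in mt-Co2, mt-Atp6, mt-Co3, mt-Nd3 and mt-Nd4l, between 97.6% and 99.9% were found without a mismatch in a nuclear transcript of the annotation. The share was 30.8% for mt-Co1, 60.8% for mt-Nd4, 3.19% for mt-Nd2 and 0% for the other protein-coding genes and the rRNAs. Pseudogenes on chromosome 2 also enter these shares. Gm13339 held all 30 matched windows of mt-Nd2, Gm13340 80 windows of mt-Co1 and Gm13341 88 of mt-Co2. In PBS 1, PBS 2, ATO 1 and ATO 2 they had few counts: 0, 0, 0 and 7 (Gm13339), 19, 19, 14 and 132 (Gm13340), and 6, 7, 4 and 38 (Gm13341). No copy of mt-Atp8 is annotated, but its first bases lie in the 233 bases between the matches of Gm28661 and Gm10925, a gap of the same length on both chromosomes. How reads that align to several places were counted is not given in the sources used here, so the levels of these genes are uncertain, and its part in the low values was not tested.

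The copies themselves received counts. For mt-Co2 (451, 586, 570 and 3574 counts in PBS 1, PBS 2, ATO 1 and ATO 2) the copy Gm28661 had 424, 449, 469 and 3977, or 48.5%, 43.4%, 45.1% and 52.7% of the counts of the pair. For mt-Atp6 (132, 191, 183 and 1097) the copy Gm10925 had 231, 313, 247 and 2395 counts, or 63.6%, 62.1%, 57.4% and 68.6% of the pair. Gene and copy were thus near each other in number for mt-Co2. For mt-Atp6 the copy held more counts than the gene in all 4 sarcomas. Both genes and both copies were highest in ATO 2. For mt-Nd3 (5, 15, 8 and 100) the copy Gm28438 held most of the pair, with 81, 97, 100 and 693 counts, or 94.2%, 86.6%, 92.6% and 87.4%. For mt-Co3 (274, 322, 239 and 1390) the copy Gm28437 had 124, 171, 130 and 4377 counts, so that its part of the pair was 31.2%, 34.7% and 35.2% in 3 sarcomas and 75.9% in ATO 2. This pair was the one in which ATO 2 lay far from the other sarcomas, and by FPKM Gm28437 was 40.0 times as high in ATO 2 as in ATO 1. The copies of genes with long stretches outside the match took little: Gm29216 had at most 0.0729% of the counts of its pair with mt-Co1, and Gm28439 at most 0.248% of its pair with mt-Nd4. All 7 copies on chromosome 1 together had 953, 1164, 1096 and 12549 counts. Adding them to the mitochondrial counts moved the difference in share between the groups from 6.68 to 6.72 percentage points.

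**Figure D3:**
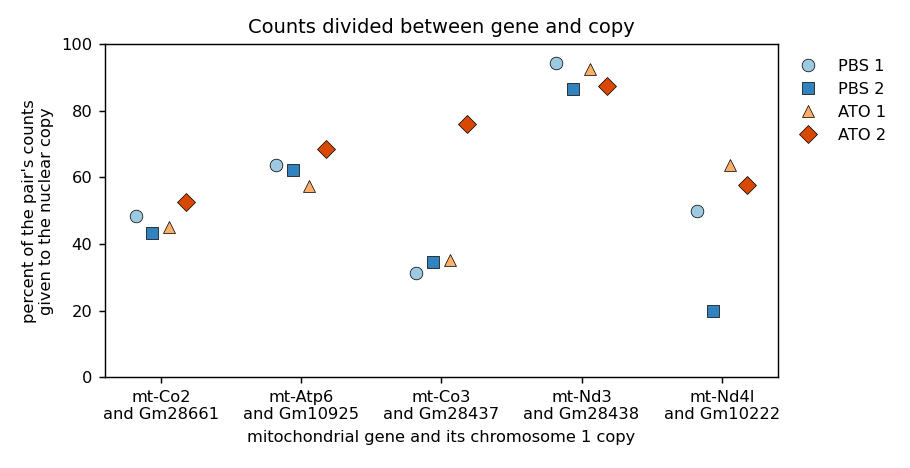
Percent of the counts of each pair that was given to the chromosome 1 copy, for the 5 mitochondrial genes matched over nearly their whole length, with 1 point for each sarcoma. For mt-Co3 and Gm28437 ATO 2 is at 75.9% and the other sarcomas are between 31.2% and 35.2%, while the pair of mt-Nd4l rests on at most 11 counts outside ATO 2.

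The order of levels depended on the copies at some places. When the counts were divided by the length outside the matched windows alone, as if no read from a matched stretch had been counted, mt-Co1 was again the highest gene in all 4 sarcomas, with 9761, 11975, 12715 and 60627 on the scale of FPKM. mt-Nd4 then had 2896, 2318, 4112 and 27633 and took the 2nd or 3rd place, where by FPKM it was the 5th or 6th. mt-Cytb was then 2nd in PBS 2 and 3rd in PBS 1, ATO 1 and ATO 2. In the PBS sarcomas mt-Cytb, mt-Nd1 and mt-Nd4 lay near each other, with 2823, 2807 and 2896 in PBS 1 and 2590, 2222 and 2318 in PBS 2. The places of these 3 genes there are therefore uncertain.

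Of the ribosomal RNAs, mt-Rnr1 (12S, the small subunit, MT 70 to 1024) had 388, 453, 370 and 3203 FPKM and mt-Rnr2 (16S, the large subunit, MT 1094 to 2675) had 286, 373, 250.8 and 3276. ATO 1 was the lowest and ATO 2 the highest of the 4 sarcomas for both. mt-Rnr1 was 1.36, 1.21 and 1.47 times as high as mt-Rnr2 in PBS 1, PBS 2 and ATO 1 and 0.978 times in ATO 2. From ATO 1 to ATO 2 the level of mt-Rnr2 was 13.1 times as high and that of mt-Rnr1 8.67 times, against 4.89 times for mt-Nd1, the next gene but for a tRNA.

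Of the 22 tRNAs, 20 were listed at 0 in all 4 sarcomas, where a count of 0 allows up to 3 counts, or between 0.165 and 0.197 CPM (counts scaled to the library total). mt-Tc had 1, 1, 2 and 4 counts. mt-Tp, the tRNA for proline (MT 15356 to 15422, minus strand), was the exception, with 490, 682, 615 and 4073 counts and an FPKM of 419, 566, 506 and 3984. It ranked 8th by FPKM among the mitochondrial genes in all 4 sarcomas, above both rRNAs, and ATO 1 lay between the PBS sarcomas. Its sequence, 67 bases long, is shorter than an untrimmed read of the study, so that a full read covers bases beside it, and which of its neighbours or strands the reads came from was not tested.
mt-Tp: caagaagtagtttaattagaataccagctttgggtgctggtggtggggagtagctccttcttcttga

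The share of each gene within the mitochondrial counts does not depend on how much of the library was mitochondrial. mt-Co1 held 39.6%, 48.2%, 39.4% and 33.0% of the mitochondrial counts in PBS 1, PBS 2, ATO 1 and ATO 2. ATO 2 was the lowest and PBS 2 the highest, while the Wilson intervals of PBS 1 (39.4 to 39.8) and ATO 1 (39.3 to 39.6) overlapped. mt-Cytb held 16.3%, 14.9%, 17.6% and 20.2%, mt-Nd2 6.22%, 4.66%, 7.20% and 11.4%, and mt-Nd4 7.36%, 5.85%, 7.98% and 9.41%. For these 3 genes both ATO sarcomas lay above both PBS sarcomas, with ATO 2 the highest. mt-Nd1 held 13.6%, 10.7%, 12.8% and 11.0%, mt-Nd5 9.98%, 8.42%, 9.59% and 7.27%, and mt-Nd6 2.35%, 1.61%, 2.15% and 1.67%. In mt-Nd1 and mt-Nd6 ATO 1 resembled PBS 1 and ATO 2 resembled PBS 2, and the groups overlapped for all 3. mt-Rnr1 held 1.88%, 2.17%, 1.36% and 2.08%, mt-Rnr2 2.29%, 2.97%, 1.53% and 3.52%, and the remaining genes under 0.2% each.

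Of the 15 protein-coding and rRNA genes, 3 thus had both ATO shares above both PBS shares (20%; mt-Nd2, mt-Nd4 and mt-Cytb) and 2 had both below (13.3%; mt-Co1 and mt-Co3). No other genes enter this comparison, so these percents are also its background, and since the shares add up to 100% a higher share of 1 gene lowers the others. The same 5 genes were found with the share taken by FPKM or among the 13 protein-coding genes alone, but the place of mt-Co3 depended on its nuclear copy. With the counts of each gene summed with those of its chromosome 1 copy, an alternative chosen after seeing the data, the share of mt-Co3 was 0.115%, 0.137%, 0.0785% and 0.255% in PBS 1, PBS 2, ATO 1 and ATO 2. ATO 2 was then the highest and ATO 1 the lowest, so that the groups overlapped, while mt-Nd2, mt-Nd4, mt-Cytb and mt-Co1 kept their places and mt-Nd4l, on few reads, lay above in both ATO sarcomas. No test was made of these shares, since an exact permutation test of 2 against 2 sarcomas gives no p below 0.333. From ATO 1 to ATO 2 the FPKM of the 15 genes was between 4.32 (mt-Nd5) and 15.5 (mt-Nd4l) times as high, with a median of 7.12. The gene with the highest ratio among the abundant protein-coding genes was mt-Nd2, with 9.04. Between the PBS sarcomas the ratio of PBS 2 to PBS 1 ran from 0.693 (mt-Nd6) to 2.93 (mt-Nd3, on 5 and 15 counts).

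**Figure D4:**
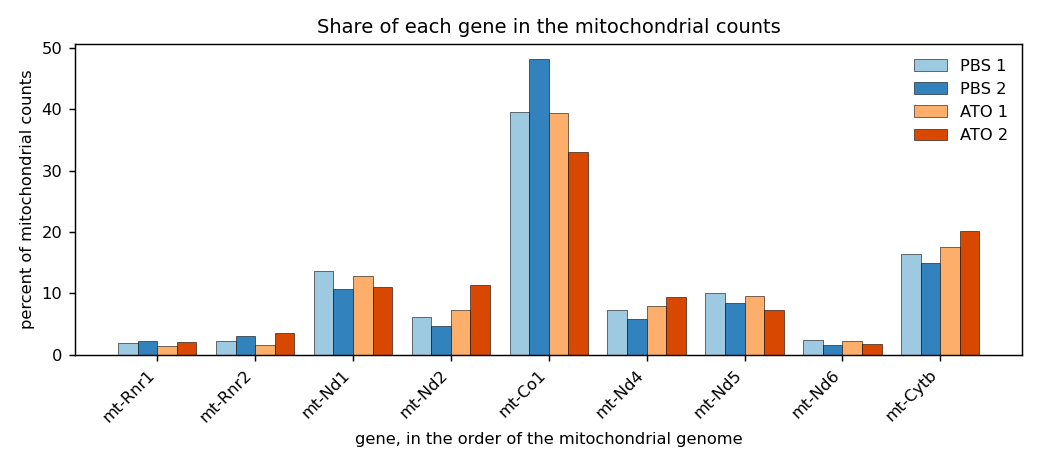
Percent of the mitochondrial counts held by each of the 7 abundant protein-coding genes and the 2 rRNAs, with 1 bar for each sarcoma. mt-Co1 holds the largest share in all 4 sarcomas and the smallest of its shares in ATO 2 (33.0%), where mt-Nd2 reaches 11.4%.

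ATO and PBS sarcomas were then compared over all genes by the quasi-likelihood test of edgeR, with TMM normalization to set the libraries to a common scale. Of the 37 genes 14 passed the filter on low counts, 11 protein-coding, 2 rRNA and 1 tRNA (mt-Tp); mt-Atp8, mt-Nd4l and the other tRNAs did not. By this test 0 of the 14 were called at a Benjamini-Hochberg adjusted p of 0.05, as were 0% of the 17188 genes tested, and 0 of the 14 had an unadjusted p under 0.05, beside 1463 or 8.51% of all genes. Other settings differed in this count: 11 of the 11 protein-coding genes had an unadjusted p under 0.05 in DESeq2 (12.5% of all genes tested there), 11 of 13 in edgeR without a filter (9.70%) and 13 of 13 in edgeR without ATO 1 (8.07%), and of these 1 (mt-Nd2, adjusted p 0.0325 in DESeq2) was called. The fitted level of all 14 was higher in ATO, by between 2.02 (mt-Co3) and 3.51 (mt-Nd2) on the log2 scale, with adjusted p between 0.597 and 0.729 in edgeR. mt-Nd2 was at 11222 ± 13246 TMM-normalized CPM (SD, n = 2) in ATO and 984 ± 205 in PBS. For mt-Nd2 edgeR gave a log2 difference of 3.51 with an adjusted p of 0.597. The SE, here and below derived from the F of the test, was 1.51. mt-Co1 had 2.13 (SE 1.53), mt-Cytb 2.86 and mt-Rnr2 2.83. For mt-Nd2 the SD of the ATO sarcomas was thus larger than their mean.

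The median log2 fold change of the 11 protein-coding genes tested was 2.56, beside -0.016 over all genes, and it rested on ATO 2. Over the single pairs the median log2 ratio of TMM-normalized CPM, with no pseudocount, was 0.50 for ATO 1 over PBS 1, 0.70 for ATO 1 over PBS 2, 3.59 for ATO 2 over PBS 1 and 3.36 for ATO 2 over PBS 2. Without ATO 2 it was 0.57, and then 10 of the 14 genes were fitted higher and 4 lower in ATO (mt-Rnr1, mt-Rnr2, mt-Co3 and mt-Nd3). By TMM-normalized CPM both ATO sarcomas lay above both PBS sarcomas for 9 of the 14 genes, all 9 protein-coding, while 19.7% of all genes tested did so and 20.2% lay below. By FPKM this held for 7 of the 13 protein-coding genes (mt-Nd1, mt-Nd2, mt-Co1, mt-Nd4, mt-Nd5, mt-Nd6 and mt-Cytb) and 0 of the 2 rRNAs, beside 12.8% of the genes tested above and 29.6% below.

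Most nuclear genes for the other subunits of complexes I to V were also fitted higher in ATO. Since edgeR called 0 of all genes tested, the nuclear lists that follow are described by counts of direction and by the number at an unadjusted p under 0.05. Of 83 nuclear subunit genes 82 were fitted higher, 62 (74.7%, beside 19.7% of all genes) had both ATO sarcomas above both PBS sarcomas by TMM-normalized CPM (52 by FPKM, or 62.7% beside 12.8%) and 19 (22.9%, beside 8.51%) had an unadjusted p under 0.05, with a median log2 fold change of 1.72. They held 0.646% of the counts in PBS 1, 0.531% in PBS 2, 0.789% in ATO 1 and 2.45% in ATO 2. From ATO 1 to ATO 2 this share was 3.11 times as high, so that the mitochondrial mRNA counts were 2.93, 3.55, 3.18 and 5.66 times those of the nuclear subunits in PBS 1, PBS 2, ATO 1 and ATO 2. In complex I, with 7 mitochondrial and 36 nuclear subunits, the ratio of summed FPKM was 6.49, 5.84, 7.11 and 14.0, and in complex III it was 6.13, 5.81, 6.78 and 11.6. In complex IV it was 5.90, 8.45, 6.05 and 7.06, with the groups overlapping. ATO 2 was thus the highest sarcoma in complexes I and III and, with all 16 nuclear genes summed, not in complex IV. That nuclear sum, 869, 744, 1102 and 4523 FPKM, includes Cox8b (0, 0.31, 50.7 and 674.8) and Cox7a1 (1.82, 1.04, 12.4 and 250). Both are also among the brown fat markers below. The sum also includes Cox6a2, which was highest in ATO 1. The order of the sarcomas in complex IV may depend on these genes, and the ratio without them was not taken. The summed mitochondrial levels of complex IV rest on mt-Co1, and the sum of complex V is not given as a ratio since both of its mitochondrial genes lie in the stretch shared with chromosome 1.

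By complex, 36 of 36 nuclear genes of complex I were fitted higher, with a median of 1.72 on the log2 scale, 4 of 4 of complex II (which has no mitochondrially encoded subunit) had 1.94, 9 of 9 of complex III had 2.15, 15 of 16 of complex IV had 2.05 and 18 of 18 of complex V had 1.34. Sdha, the flavoprotein of complex II, had an FPKM of 53.4, 40.9, 76.0 and 345 in PBS 1, PBS 2, ATO 1 and ATO 2. Atp5b, the catalytic subunit of the ATP synthase, had 124.9, 140.3, 213.9 and 696. Uqcrfs1, the Rieske iron-sulfur protein of complex III, had 58.1, 43.1, 95.6 and 372. All 3 were highest in ATO 2 and next in ATO 1. Cox6a2, the complex IV isoform of muscle and heart, had 0.67, 2.29, 129.6 and 15.5 FPKM and was thus highest in ATO 1.

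The summed level of genes for the upkeep and reading of the mitochondrial genome varied little between the sarcomas. The 21 genes of mtDNA transcription and maintenance summed to 95.1, 92.3, 92.0 and 102 FPKM in PBS 1, PBS 2, ATO 1 and ATO 2, and by TMM-normalized CPM 10 (47.6%, beside 19.7% of all genes) had both ATO sarcomas above and 3 (14.3%, beside 20.2%) both below. By FPKM 4 (19.0%, beside 12.8% of all genes) lay above and 3 (14.3%, beside 29.6%) below. Their median log2 fold change was 0.34, and 1 (4.76%, beside 8.51%) had an unadjusted p under 0.05. Tfam, which packs mitochondrial DNA and starts its transcription, had an FPKM of 5.88, 6.98, 6.97 and 7.52. Polrmt, the mitochondrial RNA polymerase, had 4.34, 4.34, 5.60 and 6.28, and Tfb2m, its initiation factor, had 6.74, 6.85, 10.9 and 14.1. By FPKM Tfam in ATO 1 thus lay between the PBS sarcomas, while Polrmt and Tfb2m were higher in both ATO sarcomas. By edgeR the log2 fold changes were 0.46 (SE 0.40, adjusted p 0.780) for Tfam, 0.74 (SE 0.41, adjusted p 0.662) for Polrmt and 1.18 (SE 0.44, adjusted p 0.583) for Tfb2m.

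Over the 30 genes of mitochondrial RNA processing and stability the median log2 fold change was 0.24. In 7 of them (23.3%, near the 19.7% of all genes) both ATO sarcomas lay above, in 1 (3.33%, beside 20.2%) below, and 1 (3.33%, beside 8.51%) had an unadjusted p under 0.05. By FPKM 2 (6.67%, beside 12.8% of all genes) lay above and 6 (20%, beside 29.6%) below, both under the share of all genes. Lrpprc, which with Slirp stabilises mitochondrial mRNAs, had 7.60, 5.29, 6.12 and 9.73 FPKM, and Slirp had 4.91, 2.99, 2.95 and 6.02. For both, ATO 2 lay above the PBS sarcomas, while ATO 1 lay between them for Lrpprc and just below both for Slirp. Fastkd1, of a family of mitochondrial RNA-binding proteins, had 1.35, 1.89, 3.16 and 5.24 FPKM, with both ATO sarcomas above PBS. By edgeR it was higher by 1.69 on the log2 scale, with an SE of 0.57 and an adjusted p of 0.570.

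Over the 13 regulators of mitochondrial biogenesis the median log2 fold change was 1.64. In 6 of them (46.2%, beside 19.7% of all genes) both ATO sarcomas lay above, in 1 (7.69%, beside 20.2%) below, and 3 (23.1%, beside 8.51%) had an unadjusted p under 0.05. By FPKM 5 (38.5%, beside 12.8% of all genes) lay above and 2 (15.4%, beside 29.6%) below. Ppargc1a, a coactivator that drives mitochondrial biogenesis in brown fat and muscle, had 0.42, 0.19, 3.21 and 2.06 FPKM. Esrrg, a nuclear receptor of oxidative tissues, had 0.15, 0.27, 0.60 and 1.70. Ppargc1a was thus higher in ATO 1 than in ATO 2, the reverse of the mitochondrial genes, and edgeR gave a log2 difference of 3.35 with an SE of 0.68 and an adjusted p of 0.570. Of 22 genes that follow mitochondrial mass, 20 were fitted higher, with a median of 0.68 on the log2 scale. In 10 (45.5%, beside 19.7% of all genes) both ATO sarcomas lay above, in 1 (4.55%, beside 20.2%) below, and 3 (13.6%, beside 8.51%) had an unadjusted p under 0.05. By FPKM these were 8 (36.4%, beside 12.8%) and 2 (9.09%, beside 29.6%). Of the 22 genes 11 were highest by FPKM in ATO 2, 5 in ATO 1, 4 in PBS 2 and 2 in PBS 1. Cs, citrate synthase, whose enzyme activity rather than mRNA is a usual measure of mitochondrial content, had the largest log2 fold change of this list (2.55). The Cs mRNA had 28.2, 29.8, 51.8 and 211 FPKM. It was 4.07 times as high in ATO 2 as in ATO 1, below the ratio of each of the 15 mitochondrial genes, while Slc25a4, the adenine nucleotide carrier of muscle, had 118, 78.8, 206 and 127 FPKM and was highest in ATO 1.

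Brown fat and adipocyte markers were highest in ATO 2, the sarcoma with the most mitochondrial RNA. The 8 brown fat markers summed to 35.7, 4.03, 65.7 and 3051 FPKM in PBS 1, PBS 2, ATO 1 and ATO 2. Their most abundant gene, Ucp1, the uncoupling protein that defines brown fat, had 0.07, 0.10, 0.03 and 1485 FPKM and Cidea, a lipid droplet protein, 0, 0, 1.19 and 547. Ucp1 was thus near 0 in 3 sarcomas and among the abundant genes in ATO 2, and since it passed the count minimum in 1 library only it was not tested. Dio2, the deiodinase that activates thyroid hormone and a marker of the same list, went another way, with 32.7, 0.28, 0.46 and 3.76 FPKM, and made up most of the sum in PBS 1. Of the 8 markers 3 were at 0 in PBS 1, 2 in PBS 2 and 0 in the ATO sarcomas, and 2 of them (Cox8b and Cox7a1) are also complex IV subunits of the list above. The 7 adipocyte markers summed to 24.5, 72.4, 272 and 1570 FPKM, with Fabp4 the most abundant (12.6, 66.1, 155 and 809) and 3, 1, 0 and 0 markers at 0.

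Of the 12 skeletal muscle markers 11 were highest in ATO 1, and Myh7, the myosin of slow fibers, was highest in ATO 2 (0, 2.32, 2.97 and 17.5 FPKM). The 12 of them summed to 7.96, 171, 18991 and 1291 FPKM, led by Acta1, the actin of skeletal muscle, with 0.78, 46.5, 3898 and 428, and 1 of them was at 0 in PBS 1 and 0 in the others. ATO 1, the sarcoma highest in muscle markers, thus had a mitochondrial share of 2.59%, and ATO 2, the highest in brown fat markers, one of 14.7%. Counts of the 12 muscle markers were 5.46% of the total in ATO 1 and those of the 8 brown fat markers 0.369% in ATO 2. The part of brown fat and muscle RNA in the mitochondrial values was not tested.

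**Figure D5:**
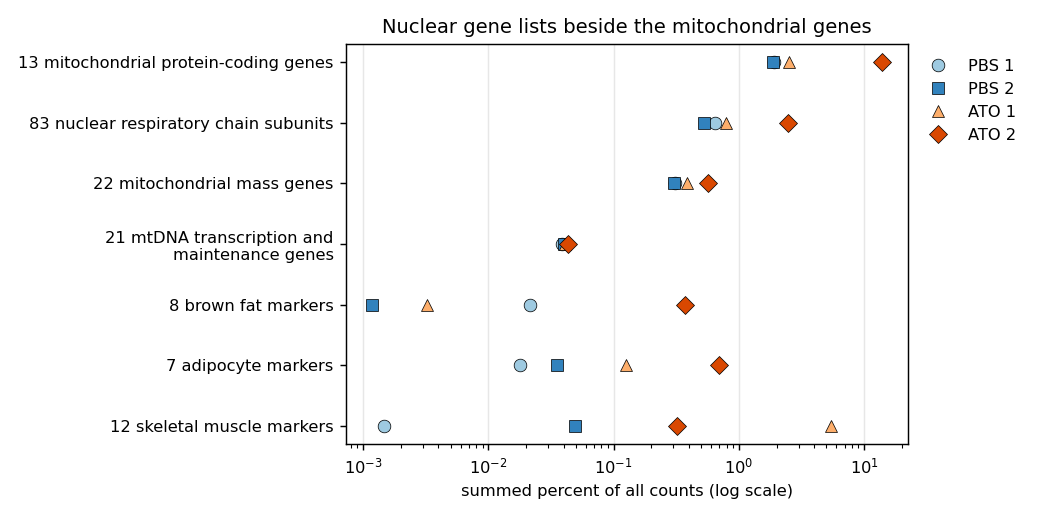
Summed percent of all counts (log scale) of the mitochondrial protein-coding genes and of nuclear gene lists, with 1 point for each sarcoma. ATO 2 is highest for the mitochondrial genes (13.9%), the nuclear subunits (2.45%) and the brown fat markers (0.369%), ATO 1 for skeletal muscle (5.46%), and the 4 sarcomas lie together for mtDNA transcription and maintenance.

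Of the other markers, the leukocyte and epithelial sums were also highest in ATO 2, as were 6 of the 6 epithelial and 3 of the 7 leukocyte markers (Cd68, Adgre1 and Itgam), while 3 leukocyte markers were highest in PBS 2 and 1 in PBS 1. The 10 mesenchymal markers, of the kind of cell sarcomas derive from, summed to 5473, 1721, 4165 and 1379 FPKM, with Col1a1 the most abundant (2276, 273, 2413 and 315). Leukocyte markers summed to 291, 179.5, 238 and 391 FPKM (7 genes, Cd68 the most abundant), endothelial markers to 102, 935, 74.2 and 151 (5 genes, Cdh5) and erythroid markers to 298, 19843, 11011 and 1128 (6 genes, Hbb-bs). ATO 2 had the lowest mesenchymal sum, but only 2 of the 10 members (Pdgfrb and Prrx1) were lowest there, while 4 were lowest in PBS 2 (Col1a1 among them) and 4 in ATO 1. PBS 2 was the highest sarcoma for 5 of the 5 endothelial and 5 of the 6 erythroid markers. Epithelial markers (6 genes, Krt18 the most abundant) summed to 1.05, 7.77, 5.54 and 20.2 FPKM, with 3, 0, 1 and 0 of them at 0, and the part of leukocyte and epithelial RNA in the mitochondrial values was not tested. Cardiac markers (7 genes, Tnni3) summed to at most 5 FPKM and hepatocyte markers (4 genes, Serpina1a) to at most 0.94.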

How the data were processed

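The authors trimmed reads with cutadapt 1.9.1, aligned them to GRCm38 with HISAT2 2.0.1 and counted them per gene with HTSeq, and deposited raw counts and FPKM. Strand setting and treatment of reads with several alignments are not given in the sources used here. The deposited FPKM equal count divided by exon length and total count to within 0.005. Gene positions and transcript sequences are from GENCODE M21. Nuclear copies were found as exact windows of 100 bases (the whole gene where shorter) in nuclear transcripts and aligned with Biopython 1.88.

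Counts were tested in R 4.3.3 with edgeR 4.0.16 (filterByExpr, TMM, trended dispersion, quasi-likelihood F-test, Benjamini-Hochberg over 17188 genes, threshold 0.05). Mitochondrial rows are from that fit. The same procedure was also run on counts simulated from the means of these data. Each SE was computed as the absolute log2 fold change divided by the square root of F, so it restates the test. The biological coefficient of variation was 62.5%. DESeq2 1.42.0, limma 3.58.1 on log2(FPKM + 1), other scalings, no filter, a replicate block and each sarcoma left out were alternatives. Named were all protein-coding and rRNA genes, tRNAs with a mean count of at least 10, Tfam, Polrmt, Lrpprc, Slirp, Ppargc1a, and examples from up to 4 genes a list with the largest change and no overlap, beside the most abundant gene. mt-Tc, Dio2, Myh7, Pdgfrb, Prrx1, Adgre1, Itgam and Atpif1 were named after their values were seen. The members and lists were chosen with earlier results of these data known. P-values measure only the spread between these 4 samples.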

Additional observations from a re-analysis of the deposited data

How the results depend on the processing

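The number of genes called, 0 in edgeR, was 714 in DESeq2 and 541 without a filter on low counts, of which 1 (mt-Nd2, adjusted p 0.0325) and 0 were mitochondrial, and 0 in edgeR with DESeq2 size factors, nuclear scaling, total counts or a robust fit, in limma, with the replicate block and with any sarcoma left out. The cause was not tested. The median log2 fold change of the mitochondrial protein-coding genes, 2.56, was between 0.57 (without ATO 2) and 3.39 with each sarcoma left out, 1.53 in limma and 2.17 with total counts, where the median of all genes was -0.28. With the replicate block it was 1.87. The labels give only shared numbers, deviations of same-numbered sarcomas had a correlation of 5e-05, and the block changed no call. All 14 single genes kept a higher fitted level in every alternative except without ATO 2. There mt-Rnr1 had -0.051, mt-Rnr2 -0.258, mt-Co3 -0.215 and mt-Nd3 -0.201, and with other sarcomas left out they reached 3.34, 3.72, 2.85 and 3.96. The difference in mitochondrial share, 6.68 percentage points, was 6.38 without the rRNAs, 13.9 by FPKM, and between 0.603 (without ATO 2) and 12.8 (without ATO 1) with each sarcoma left out. The number of genes whose shares did not overlap, 5, was between 9 and 11 with each sarcoma left out, where 1 group holds 1 sarcoma. It was 5 as well with each gene summed with its chromosome 1 copy, where mt-Nd4l took the place of mt-Co3. The alternatives with the copies on chromosome 1, or with the length outside all windows matched in nuclear transcripts, were chosen after seeing the data. Leaving out a sarcoma assumes that the lone sarcoma of a group varies like the other group. With 2 sarcomas a group and this spread, a count of 0 called does not show that the genes are alike.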
